A study of Mus musculus with 6 samples.

Results

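The transcripts described here are those of 48 mouse genes for conjugating enzymes, out of 19938 genes measured in whole ileum. They comprise 10 UDP-glucuronosyltransferases (UGT), 16 cytosolic sulfotransferases (SULT), 19 soluble glutathione S-transferases (GST) and 3 membrane-bound microsomal glutathione S-transferases (MGST). Members were chosen by gene symbol alone: symbols starting with Ugt1, Ugt2, Ugt3, Sult, Gsta, Gstm, Gstp, Gstt, Gsto, Gstk, Gstz or Mgst, on a probe set that the array annotation pairs with 1 symbol only. A further 12 probe sets carry symbols of these families but are shared between genes. All UGT1 genes fall under that heading, so every UGT member belongs to UGT2 or UGT3.

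RNA came from the whole ileal wall of 6 mice, with 1 Affymetrix mouse Gene 1.0 ST array per mouse. The 3 control mice carried Villin-CreERT2, a Cre recombinase that tamoxifen switches on, driven by the Villin promoter of intestinal epithelial cells. The other 3, labelled Gata6 KO, carried Villin-CreERT2 together with homozygous floxed alleles of Gata6 (GATA6 flox/flox), a zinc finger transcription factor. Both groups received daily tamoxifen (100 mg/ml) for 5 days at an age of 6 to 8 weeks, and ileum was taken 28 days later, at 10 to 12 weeks. Muscle and connective tissue of the wall lie outside the reach of the Villin promoter and are part of each sample. Nothing in the labels says whether mice of the 2 groups were littermates.

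Conjugation is the step in which a cell attaches a polar group to a lipophilic compound so that it can be exported in bile, urine or gut contents. UGT enzymes sit in the endoplasmic reticulum and transfer glucuronic acid from UDP-glucuronate. SULT enzymes transfer sulfate from the donor PAPS, and GST enzymes join electrophiles to glutathione. The small intestinal epithelium is known for high activity of all of these enzymes, which meet drugs, plant compounds, bile acids and products of lipid peroxidation before they reach the liver.

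The median log2 signal over all probe sets lay between 3.33 and 3.44 on the 6 arrays, and a gene below it was not shown to lie above background. The number of arrays limits the precision. Gata6 itself did not bear the label out: controls read 6.31, 6.33 and 6.50 on the log2 scale, and the KO-labelled arrays 6.93, 6.81 and 6.86 (log2 fold change 0.49, limma adjusted p = 0.0162, or 0.0501 to 0.0623 without control replicate 1 or without any 1 KO-labelled array). Where its probes lie relative to the floxed exons was not known here, so directions are stated for the arrays labelled Gata6 KO. Control replicate 3 read 2.31 for Xist against 7.39 to 7.81 on the others, and 5.30 for the Y-linked Eif2s3y against 0.27 to 0.61, the signals of a male among females. Control replicate 1 had a mean of 7.01 over 6 colon epithelium markers, while the other controls had 5.17 and 5.41 and the KO-labelled arrays 7.25 to 8.28. The markers differed in this. In control replicate 1 Car1 read 10.96 against 5.68 and 6.87 in the other controls, and Aqp8 5.60 against 2.89 and 2.84. Car4 read 8.38 against 7.33 and 8.32, and Slc26a3 was lowest in control replicate 1, at 7.31 against 7.44 and 7.34. Over the 6 colon markers the median log2 fold change was 1.59, and Cyp2c55 alone passed the test. Of 5 ileal epithelium markers 3 passed as lower, each at least 2-fold, and the median log2 fold change over the 5 was -2.03. Their mean ran from 7.92 to 8.95 over controls and from 6.52 to 7.37 over the KO-labelled arrays. The mean of 6 general epithelial markers ran from 10.21 to 10.34 and from 10.18 to 10.32 in the same order, and 1 of them, Vil1, fell by 0.41 on the log2 scale. Means of 6 smooth muscle markers were 8.68 to 8.89 over controls and 8.87 to 9.28 over the KO-labelled arrays, and 1 of them, Tagln, rose. For 6 fibroblast markers they were 7.68 to 8.13 and 8.15 to 8.47, without overlap, with all 6 members above 0 (median log2 fold change 0.42) and none past the test. Lymphocyte markers (5 genes, 4.56 to 4.71 and 4.40 to 4.79) and hepatocyte markers (5 genes, 2.21 to 2.41 and 2.29 to 2.85) overlapped between groups. Means of 3 exocrine pancreas markers were 2.95 to 3.32 and 2.75 to 2.91, and 1 of them, Ctrb1, fell. The parts of these in the results were not tested.

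Conjugation enzymes changed often, and most of those that changed were higher in the arrays labelled Gata6 KO. Of the 48 genes, 13 rose, 4 fell and 31 did not pass at a limma adjusted p under 0.05, with Benjamini-Hochberg adjustment over all 19938 genes. That is 35.4% of members against 8.24% of all genes; 27.1% of members were higher against 4.99%, and 8.33% were lower against 3.25%. The median log2 fold change over the members was 0.13, beside -0.0043 over all genes. Of the genes that passed, 9 of the 48 members changed at least 2-fold, against 1.8% of all genes. The 9 include the dim genes Ugt2a3 and Gstm6, whose size of change is uncertain. Among the 30 members above the array median on at least 3 arrays the count was 7, and the share of all genes under that filter was not counted. The 7 include Ugt2b36, whose KO-labelled values were all under the array medians. They also include Gstm3, whose groups overlapped on its dimmer probe set. The 2 groups of arrays did not overlap for 25 members, 52.1%, against 29.3% of all genes. The members were chosen with earlier results of these arrays known, so these shares describe the families and carry no test of their own. In whole tissue, fewer cells of a type and less RNA per cell cannot be told apart, and the same holds for increases. Without control replicate 3, the array with male signals, 4 members were higher and 2 lower, and without control replicate 1 these counts were 6 and 3. Without control replicate 2 they were 7 and 4, and without Gata6 KO replicates 1, 2 and 3 they were 9 and 2, 4 and 2, and 4 and 2. Counts over all genes fell in these fits too, from 995 to between 320 and 806 higher and from 648 to between 277 and 597 lower. Without control replicate 3 they were 393 and 286, and without control replicate 1 they were 630 and 459. With each array centred on its median the split over all genes moved from 995 higher and 648 lower to 1562 and 565, while that of the members became 17 and 4.

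**Figure D1:**
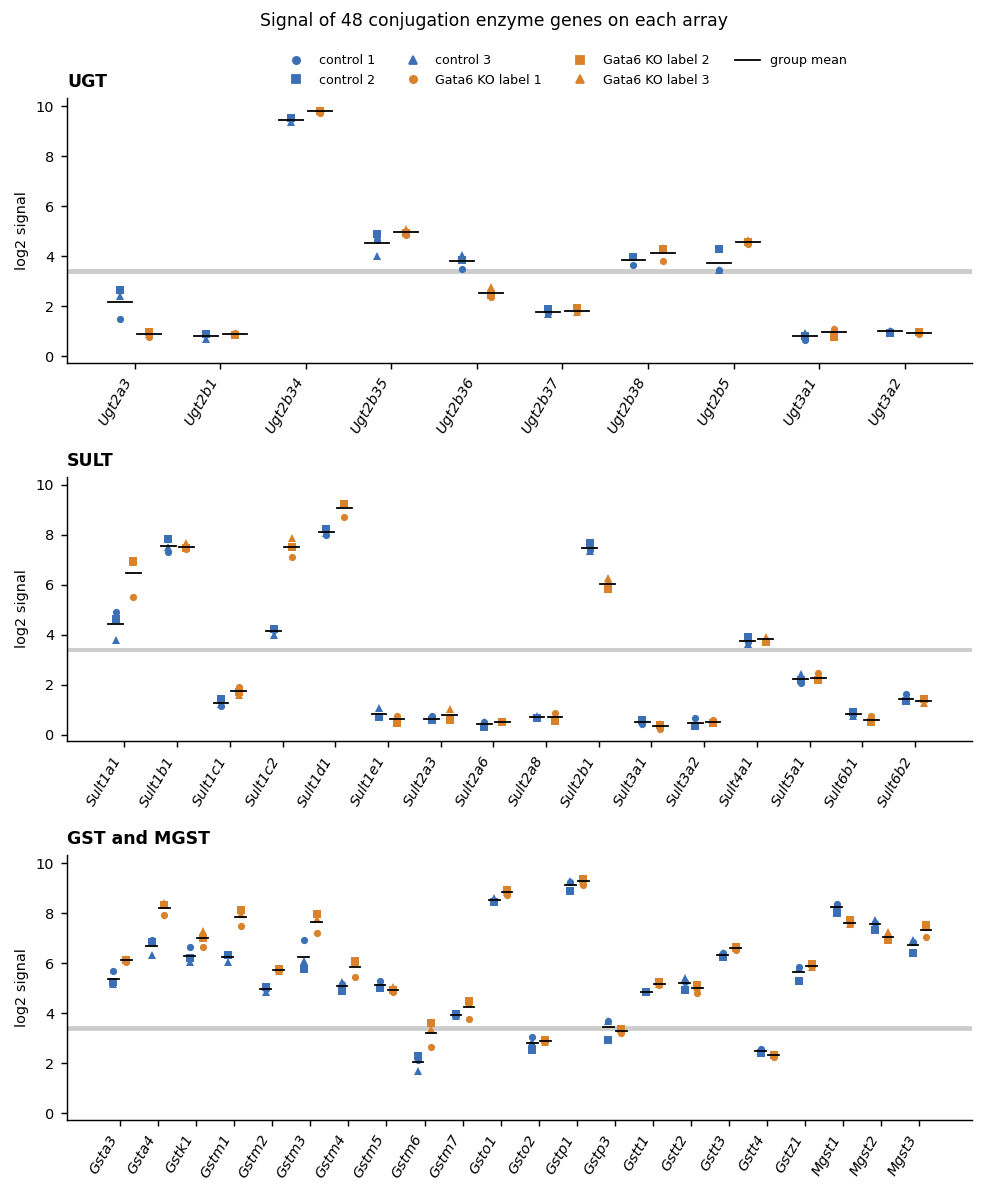
Log2 signal of each of the 48 genes on each of the 6 arrays, in 3 panels by family; circles, squares and triangles are replicates 1, 2 and 3, short black lines are group means, and the grey band spans the array medians. Sult1c2 stands out with controls at 3.98 to 4.21 and KO-labelled arrays at 7.11 to 7.86, while 17 genes lie below the band on every array.

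Part of the list was dim. On all 6 arrays 28 of the 48 genes were above the array median, and 30 were above it on at least 3 arrays. Below it on every array were 17 genes, 5 of the UGT, 10 of the SULT and 2 of the GST members, with array values from 0.21 to 3.03. Of these 17 genes, 15 did not pass, and the other two, Ugt2a3 and Sult1c1, are described with their families. Log2 signals of different probe sets are not levels per transcript, and no order of levels between genes is read from them.

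**Figure D2:**
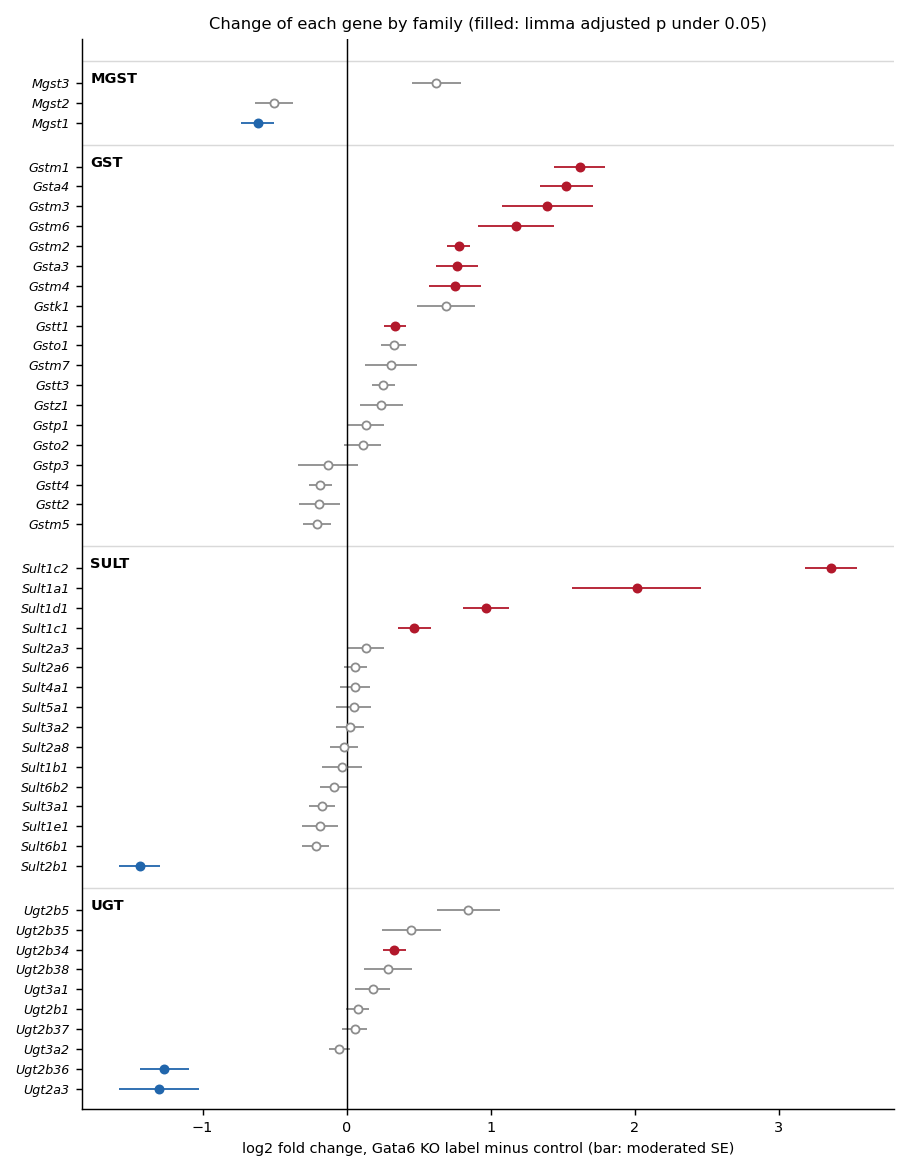
Log2 fold change (Gata6 KO label minus control, horizontal axis) of the 48 genes, grouped by family and ordered within it; bars are the moderated standard error, and filled points passed at a limma adjusted p under 0.05. The GST group holds 8 filled points above 0 and none below, and Sult1c2 lies farthest out at 3.36.

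The UGT members moved in both directions. Of 10 genes 1 rose (10.0%, against 4.99% of all genes), 2 fell (20.0%, against 3.25%) and 7 did not pass. The median log2 fold change, over all 10, was 0.13. Ugt2b36 and Ugt2b34 lie in the same UGT2 cluster of chromosome 5 and passed in opposite directions, and their promoter windows are shown for that reason. Each window runs from 250 bases before to 50 after the annotated start, 5′ to 3′ on the gene's strand, from RefSeq on GRCm38.p6. Capitals mark matches to the GATA factor motif (AGATAA or its variant AGATAG, or equally TGATAA or its variant TGATAG, on either strand) or to the core of the antioxidant response element (TGACNNNGC, on either strand), the site known to be bound by NRF2.
Ugt2b36, chr5:87092506-87092805, minus strand: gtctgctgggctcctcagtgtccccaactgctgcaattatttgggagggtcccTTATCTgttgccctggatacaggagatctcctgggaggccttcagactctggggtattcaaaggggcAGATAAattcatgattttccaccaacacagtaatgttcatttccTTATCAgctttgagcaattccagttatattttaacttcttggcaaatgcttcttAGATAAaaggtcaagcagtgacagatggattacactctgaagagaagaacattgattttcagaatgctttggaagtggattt
Ugt2b34, chr5:86906888-86907187, minus strand: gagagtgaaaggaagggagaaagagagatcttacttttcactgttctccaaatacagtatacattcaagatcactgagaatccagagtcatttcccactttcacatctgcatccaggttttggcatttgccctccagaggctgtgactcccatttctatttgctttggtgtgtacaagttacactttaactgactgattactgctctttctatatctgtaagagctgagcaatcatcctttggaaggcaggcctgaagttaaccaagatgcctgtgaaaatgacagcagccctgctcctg

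The window of Ugt2b36 held 4 matches to the GATA motif, the most of any member, and that of Ugt2b34 none. In the same cluster Ugt2b35 held 2, and Ugt2b1, Ugt2b37 and Ugt2b38 held 1 each, and none of these genes passed. Ugt2a3, which fell, held 1, as did Sult1d1 of chromosome 5, which rose, and Ugt2b5, which did not pass, held none. Among all 32851 RefSeq windows, 29.8% held at least 1. For 44 of the 48 members a window was listed, and 19 of them, 43.2%, held a match; where a gene had several windows the one listed first was taken. Among members that rose 4 of 12 had a match, and among those that fell 2 of 4. A match is a string of letters and was not tested for binding.

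Ugt2b36 read 3.48, 3.85 and 4.07 in controls and 2.37, 2.46 and 2.78 in the KO-labelled arrays. The groups did not overlap, and all 3 KO-labelled values were under the medians of their arrays, which leaves its size uncertain. It fell by 1.27 on the log2 scale (SE 0.17, with 3 arrays per group here and throughout, limma adjusted p = 0.00674), and it passed without any 1 of the 6 arrays. Ugt2a3, whose human counterpart glucuronidates bile acids, read 1.49, 2.66 and 2.42 in controls and 0.78, 0.97 and 0.90 in the KO-labelled arrays. Every value was below the array medians, and control replicate 1 was the control nearest to the other group. It fell by 1.30 on the log2 scale (SE 0.28, limma adjusted p = 0.0331), a call lost without control replicates 2 or 3 or any 1 KO-labelled array (0.0692 to 0.126). Ugt2b34 was bright on every array, at 9.49, 9.55 and 9.39 in controls and 9.75, 9.82 and 9.85 in the KO-labelled arrays. It rose 1.26-fold (log2 fold change 0.33, SE 0.08, limma adjusted p = 0.0471), a small change that was lost without any 1 of the 6 arrays (0.0542 to 0.152).

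Of the UGT genes that did not pass, Ugt2b5 came nearest. It read 3.45, 4.27 and 3.45 in controls, so that control replicate 2 stood well above the other two, and 4.48, 4.57 and 4.66 in the KO-labelled arrays (log2 fold change 0.84, SE 0.22, limma adjusted p = 0.0607). It passed without control replicate 2, at a log2 fold change of 1.12 with a limma adjusted p of 0.00578. Ugt2b35 read 4.63, 4.87 and 4.03 in controls and 4.85, 4.93 and 5.11 in the KO-labelled arrays, and its groups overlapped (log2 fold change 0.45, SE 0.21, limma adjusted p = 0.230). The other 5, Ugt2b1, Ugt2b37, Ugt2b38, Ugt3a1 and Ugt3a2, had log2 fold changes between -0.05 and 0.28 and overlapping groups.

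The SULT members that rose were all of the SULT1 family, which acts on phenols and catechols, and the one that fell, Sult2b1, belongs to the SULT2 family of hydroxysteroid sulfotransferases. Of 16 genes 4 rose, 1 fell and 11 did not pass, while 4.99% of all genes were higher and 3.25% lower. Over the 16 the median log2 fold change was 0.04. The groups did not overlap for 5 of the 16, 31.2%, close to the 29.3% of all genes. The promoter windows of the SULT genes with the largest change in either direction are given next, in the same format. Neither holds a match to either motif.
Sult1c2, chr17:53845909-53846208, minus strand: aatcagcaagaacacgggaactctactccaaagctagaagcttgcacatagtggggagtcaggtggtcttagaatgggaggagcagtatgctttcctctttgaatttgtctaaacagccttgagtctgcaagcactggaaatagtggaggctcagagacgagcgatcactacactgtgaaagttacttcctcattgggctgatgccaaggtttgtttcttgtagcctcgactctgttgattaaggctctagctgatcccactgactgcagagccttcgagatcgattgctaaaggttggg
Sult2b1, chr7:45759563-45759862, minus strand: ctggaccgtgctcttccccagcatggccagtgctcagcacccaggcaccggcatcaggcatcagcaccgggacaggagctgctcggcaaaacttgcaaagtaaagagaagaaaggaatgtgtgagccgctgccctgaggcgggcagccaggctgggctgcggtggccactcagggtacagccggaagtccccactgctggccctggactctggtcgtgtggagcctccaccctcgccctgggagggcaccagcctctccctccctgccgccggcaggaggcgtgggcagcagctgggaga

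Sult1c2 had the largest change of all 48 genes. Its log2 signal was 4.21, 4.21 and 3.98 in controls and 7.11, 7.52 and 7.86 in the KO-labelled arrays. It thus went from near the array medians to a bright signal, with a gap between the groups far wider than the spread within either. The change was 10.3-fold (log2 fold change 3.36, SE 0.18, limma adjusted p = 3.04e-04), and over the fits that each left out 1 array it ran from 3.18 to 3.55 with every adjusted p at or below 0.00480. Its chromosome 17 relative Sult1c1 read 1.16, 1.43 and 1.24 in controls and 1.92, 1.72 and 1.61 in the KO-labelled arrays. All of these are under the medians of the arrays, and its rise of 0.47 (SE 0.11, limma adjusted p = 0.0480) is uncertain in size, and the call was lost without control replicates 1 or 3 or any 1 KO-labelled array (0.0731 to 0.145).

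Sult1a1, the main phenol sulfotransferase of liver and gut, read 4.92, 4.65 and 3.78 in controls and 5.50, 6.96 and 6.93 in the KO-labelled arrays. The groups did not overlap, but Gata6 KO replicate 1 lay closer to control replicate 1 than to the other KO-labelled arrays, and control replicate 3 was the lowest. It rose 4.03-fold (log2 fold change 2.01, SE 0.45, limma adjusted p = 0.0380). That call was kept without Gata6 KO replicate 1 and lost without any 1 of the other 5 arrays (0.0679 to 0.145).

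Sult1d1, which in rodents sulfonates catecholamines, was already bright in controls, at 8.02, 8.25 and 8.06. In the KO-labelled arrays it read 8.72, 9.25 and 9.26, again with replicate 1 the lowest. It rose 1.95-fold (log2 fold change 0.97, SE 0.16, limma adjusted p = 0.0134), and lost the call without control replicates 1 or 3 or Gata6 KO replicates 2 or 3 (0.0502 to 0.0650). Its neighbour Sult1b1, a sulfotransferase of thyroid hormones, read 7.31, 7.82 and 7.52 in controls and 7.43, 7.46 and 7.66 in the KO-labelled arrays. The groups overlapped fully and the difference was -0.03 (SE 0.14, limma adjusted p = 0.911). The sign of that difference turned under 4 alternatives.

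Sult2b1, which sulfonates cholesterol and other hydroxysteroids, read 7.40, 7.68 and 7.37 in controls and 6.04, 5.82 and 6.29 in the KO-labelled arrays. All 6 values were well above the array medians and the groups stood more than 1 log2 unit apart. It fell by 1.44 on the log2 scale, 2.71-fold (SE 0.14, limma adjusted p = 0.00195), and passed without any 1 array (adjusted p up to 0.0162). The brain-enriched Sult4a1 read 3.70, 3.93 and 3.63 in controls and 3.81, 3.71 and 3.92 in the KO-labelled arrays, with overlapping groups and a difference of 0.06 (SE 0.10, limma adjusted p = 0.766). The 9 remaining SULT genes, among them the oestrogen sulfotransferase Sult1e1 and the measured SULT2A, SULT3, SULT5 and SULT6 genes, had means from 0.43 to 2.26. Their log2 fold changes lay between -0.22 and 0.14 and none passed (lowest limma adjusted p = 0.211). All 9 were below the array medians on every array, where a measured change is uncertain in size.

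**Figure D3:**
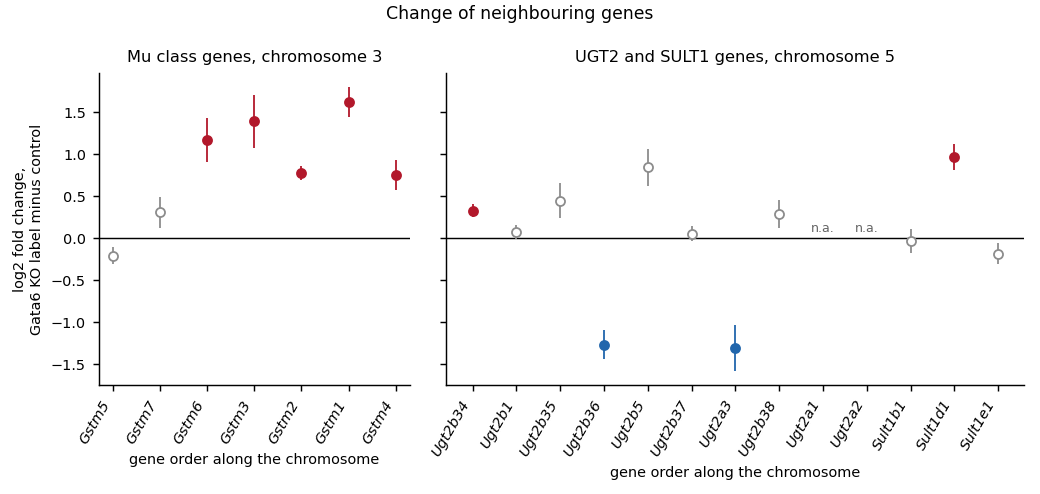
Log2 fold change (Gata6 KO label minus control, vertical axis) of genes in their order along chromosome 3 (Mu class GST) and chromosome 5 (UGT2 and SULT1), with moderated standard errors; filled points passed at a limma adjusted p under 0.05, and n.a. marks genes without a probe set of their own. Of the 7 Mu genes 5 are filled and above 0, while filled points on chromosome 5 lie on both sides of 0. Gstm3 is drawn from the brighter of its 2 probe sets, and on the dimmer one the groups overlapped. The order is that of the genes, and the positions of the probe sets were not checked.

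Soluble GST genes were higher where they passed. Of 19 genes 8 rose (42.1%, against 4.99% of all genes), none fell and 11 did not pass. The median log2 fold change over the 19 was 0.33. The groups did not overlap for 13 of them, 68.4% against 29.3% of all genes. At an unadjusted p under 0.05, 11 of the 19 were higher and 0 lower by limma, against 14.4% and 10.3% of all genes at that threshold. By class, 2 of 2 Alpha genes with a probe set of their own rose, 5 of 7 Mu genes and 1 of 4 Theta genes. The 4 probe sets that the Alpha genes Gsta1 and Gsta2 share are outside this count. Their log2 fold changes were -0.35 to -0.31 and did not pass. The Mu count takes Gstm3 from the brighter of its 2 probe sets, and on the dimmer one the groups overlapped. The single Kappa and Zeta genes and the pairs of Omega and Pi genes did not pass.

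The windows of Gsta3 and Gstm1 are shown because Gsta3 was the only member that rose with a match to the antioxidant response core, while Gstm1 had the largest change of the GST genes and no match.
Gsta3, chr1:21240335-21240634, plus strand: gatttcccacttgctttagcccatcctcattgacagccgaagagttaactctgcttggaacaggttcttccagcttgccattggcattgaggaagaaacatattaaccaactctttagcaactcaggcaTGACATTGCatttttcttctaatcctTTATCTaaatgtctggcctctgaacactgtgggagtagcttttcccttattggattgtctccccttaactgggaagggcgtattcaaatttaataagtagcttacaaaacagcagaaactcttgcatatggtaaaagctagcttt
Gstm1, chr3:108017924-108018223, minus strand: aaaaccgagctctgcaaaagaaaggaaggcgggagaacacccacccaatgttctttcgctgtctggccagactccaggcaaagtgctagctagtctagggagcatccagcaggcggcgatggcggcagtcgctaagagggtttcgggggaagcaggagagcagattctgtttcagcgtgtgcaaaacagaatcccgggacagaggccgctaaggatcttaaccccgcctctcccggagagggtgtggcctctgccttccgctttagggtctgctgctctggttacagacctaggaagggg

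Of all windows 12.4% held that core, against 3 of 44 windows of members, 6.82%: those of Gsta3, which rose, Mgst1, which fell, and Gstm5, which did not pass. The windows cover 300 bases, and no match says only that these letters are not in them.

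The 7 Mu class genes lie next to each other on chromosome 3 in the order Gstm5, Gstm7, Gstm6, Gstm3, Gstm2, Gstm1 and Gstm4, in the RefSeq gene table of GRCm38.p6. They are close paralogs, so their values are not independent measurements. Gstm1, the main hepatic Mu enzyme, read 6.36, 6.33 and 6.07 in controls and 7.48, 8.14 and 7.99 in the KO-labelled arrays. Every KO-labelled value was more than 1 log2 unit above the highest control. It rose 3.07-fold (log2 fold change 1.62, SE 0.18, limma adjusted p = 0.00292) and passed without any 1 array (adjusted p up to 0.0205).

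Gstm2 read 4.97, 5.04 and 4.87 in controls and 5.77, 5.77 and 5.68 in the KO-labelled arrays, the tightest replicates of the class among the genes that passed. It rose 1.71-fold (log2 fold change 0.78, SE 0.08, limma adjusted p = 0.00218) and also passed without any 1 array. Gstm3 read 6.95, 5.78 and 6.08 in controls and 7.22, 7.96 and 7.79 in the KO-labelled arrays. Here control replicate 1 came close to Gata6 KO replicate 1, and the 2.63-fold rise (log2 fold change 1.39, SE 0.32, limma adjusted p = 0.0410) was lost without control replicates 2 or 3 or any 1 KO-labelled array (0.0652 to 0.154). Gstm3 has a second, dimmer probe set, on which the groups overlapped: 6.49, 5.05 and 5.61 in controls and 6.30, 6.97 and 7.05 in the KO-labelled arrays. In the fit of all 35557 probe sets, of which 2.52% passed, neither probe set of Gstm3 passed (log2 fold changes 1.39 and 1.06, limma adjusted p = 0.108 and 0.241).

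Gstm4 read 5.17, 4.90 and 5.27 in controls and 5.47, 6.08 and 6.04 in the KO-labelled arrays, with a narrow gap between the groups. It rose 1.69-fold (log2 fold change 0.75, SE 0.18, limma adjusted p = 0.0484), a call kept only without Gata6 KO replicate 1 among the 6 fits (0.105 to 0.167 in the others). Gstm6 was dim, at 2.12, 2.29 and 1.69 in controls and 2.64, 3.60 and 3.38 in the KO-labelled arrays. Only 2 of its 6 values exceeded the medians of the arrays, which makes the size of its rise of 1.17 (SE 0.26, limma adjusted p = 0.0385) uncertain, and the call was likewise kept only without Gata6 KO replicate 1 (0.0606 to 0.135 in the others). At the edge of the cluster Gstm7 and Gstm5 did not pass. Gstm7 read 3.92, 3.95 and 3.90 in controls and 3.78, 4.49 and 4.43 in the KO-labelled arrays, so Gata6 KO replicate 1 lay below all controls (log2 fold change 0.31, SE 0.18, limma adjusted p = 0.343). Without that array Gstm7 passed, at a log2 fold change of 0.53 and a limma adjusted p of 0.0242. Gstm5, a Mu gene known for expression in brain and testis, read 5.29, 5.03 and 5.14 in controls and 4.86, 4.92 and 5.05 in the KO-labelled arrays (log2 fold change -0.20, SE 0.10, limma adjusted p = 0.245). It was the only Mu gene with a value below 0, and the differences between Mu genes were not tested.

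Gata6 KO replicate 1 was the lowest KO-labelled array for 11 of the 13 conjugation genes that rose. It was also the lowest of the KO-labelled arrays for the mean of the colon and smooth muscle markers, at 7.25 and 8.87. Control replicate 3, with male signals, was the lowest control for 9 of the 13, and also had the lowest fibroblast marker mean, at 7.68. How often these orders held among all genes that rose was not counted, so they are not read as particular to these enzymes. Of the 13 genes, 5 are Mu paralogs and not independent. Whether sex, colon, muscle or fibroblast signal had a part in these orders was not tested.

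In the Alpha class, Gsta4 conjugates 4-hydroxynonenal, an aldehyde made by lipid peroxidation. Gsta4 read 6.92, 6.87 and 6.34 in controls and 7.95, 8.34 and 8.41 in the KO-labelled arrays, with every KO-labelled value more than 1 log2 unit above every control. It rose 2.88-fold (log2 fold change 1.52, SE 0.18, limma adjusted p = 0.00433) and passed without any 1 array (adjusted p up to 0.0319). Gsta3, which in mice detoxifies the aflatoxin epoxide, read 5.71, 5.24 and 5.16 in controls and 6.06, 6.15 and 6.19 in the KO-labelled arrays. Control replicate 1 again stood nearest to the KO-labelled arrays. The rise was 1.70-fold (log2 fold change 0.77, SE 0.15, limma adjusted p = 0.0236), and the call was kept only without control replicate 1 among the 6 fits (0.0637 to 0.0981 in the others).

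Gstt1, a Theta class enzyme of small halogenated compounds, read 4.87, 4.85 and 4.85 in controls and 5.13, 5.27 and 5.18 in the KO-labelled arrays. The 1.26-fold rise (log2 fold change 0.33, SE 0.07, limma adjusted p = 0.0373) was lost without any 1 of the 6 arrays (0.0633 to 0.132). Gstt3, of the same class and chromosome, read 6.40, 6.24 and 6.42 in controls and 6.55, 6.65 and 6.61 in the KO-labelled arrays and did not pass (log2 fold change 0.25, SE 0.08, limma adjusted p = 0.109).

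Gstp1, the Pi class gene widely expressed in epithelia, read 9.25, 8.89 and 9.31 in controls and 9.15, 9.39 and 9.31 in the KO-labelled arrays. The groups overlapped and the difference was 0.13 (SE 0.13, limma adjusted p = 0.574). Gsto1, an Omega class enzyme that reduces dehydroascorbate, read 8.48, 8.47 and 8.61 in controls and 8.73, 8.94 and 8.88 in the KO-labelled arrays (log2 fold change 0.33, SE 0.09, limma adjusted p = 0.0663). Gstk1, of mitochondria and peroxisomes, had the largest log2 fold change of the GST genes that did not pass, 0.69 (SE 0.20, limma adjusted p = 0.0892), with controls at 6.65, 6.23 and 6.04 and KO-labelled arrays at 6.66, 7.03 and 7.31. The remaining 5 GST genes, Gstt2, Gstt4, Gsto2, Gstp3 and Gstz1, had log2 fold changes between -0.19 and 0.24.

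The 3 microsomal enzymes belong to an unrelated protein family of the membrane and did not share a direction. Mgst1, which guards endoplasmic reticulum and outer mitochondrial membrane, read 8.38, 8.02 and 8.35 in controls and 7.59, 7.72 and 7.58 in the KO-labelled arrays. It fell by 0.62 on the log2 scale, 1.53-fold (SE 0.11, limma adjusted p = 0.0204), and kept the call only without control replicate 2 among the 6 fits (0.0618 to 0.0834 in the others). Mgst2, which can make leukotriene C4, read 7.62, 7.33 and 7.73 in controls and 6.99, 6.92 and 7.26 in the KO-labelled arrays (log2 fold change -0.50, SE 0.13, limma adjusted p = 0.0663). Mgst3 read 6.85, 6.43 and 6.92 in controls and 7.07, 7.55 and 7.45 in the KO-labelled arrays (log2 fold change 0.62, SE 0.17, limma adjusted p = 0.0723). Neither of the latter passed, although the groups of both did not overlap. Without control replicate 2 Mgst2 passed, at a log2 fold change of -0.62 and a limma adjusted p of 0.0446.

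Over all 3 families, 6 of the 17 genes that passed did so whichever of the 6 arrays was left out: Sult1c2, Gsta4, Gstm1 and Gstm2, which were higher, and Sult2b1 and Ugt2b36, which were lower. None of the 17 turned direction in these fits. With both control replicates 1 and 3 left out, 1 control array remained and 1 member, Ugt2a3, passed.

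Conjugation also needs activated donors, regulators and exporters, and 10 lists of such genes were read beside the enzymes. Each count below stands against the 4.99% of all genes that were higher and the 3.25% that were lower. Up to 4 genes per list, those with the smallest p that passed, are named.

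Of 7 genes of UDP-glucuronate supply 3 rose and 1 fell, with a median log2 fold change of 0.34. Ugdh, the dehydrogenase that makes UDP-glucuronate, rose from a mean of 8.96 to 9.82 (log2 fold change 0.86, SE 0.13). Ugp2, which makes UDP-glucose, rose by 0.51 (SE 0.07) and the phosphoglucomutase Pgm1 by 0.78 (SE 0.11), while Slc35b1, a nucleotide carrier of the endoplasmic reticulum, fell by 0.65 (SE 0.09). Of 10 genes of PAPS and sulfate supply 1 rose and 1 fell. Papss2, a PAPS synthase, rose by 1.28 (SE 0.23), whereas Suox, which oxidises sulfite to sulfate, fell by 1.25 (SE 0.16). The 6 genes had limma adjusted p values of 0.00527 to 0.0190.

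Of 17 genes of glutathione synthesis and recycling 4 rose and 3 fell, with a median of 0.20. Cbs, the first enzyme of transsulfuration, rose by 1.94 (SE 0.22) and Chac2, which degrades glutathione, by 0.63 (SE 0.08). Gsr, which regenerates reduced glutathione, fell by 1.00 (SE 0.13) and Slc3a2, the heavy chain of amino acid exchangers, by 0.83 (SE 0.09). Of 19 NRF2 target genes 6 rose and 1 fell, with a median of 0.34, and 2 of the 6 are also on the glutathione list. The quinone reductase Nqo1 rose by 1.12 (SE 0.18), malic enzyme Me1 by 1.06 (SE 0.16) and Gclc, the catalytic subunit of the first step of glutathione synthesis, by 0.81 (SE 0.15), while sulfiredoxin, Srxn1, fell by 0.49 (SE 0.07). The 8 limma adjusted p values ran from 0.00282 to 0.0206.

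Of 18 receptors and regulators 1 rose and 4 fell, with a median of -0.05. Nfe2l2, the gene of NRF2, rose by 0.60 (SE 0.12), and Bach1, a repressor of the same sites, fell by 0.54 (SE 0.11). Maf fell by 1.14 (SE 0.12) and Nr1i3, the receptor CAR, by 0.52 (SE 0.10) from a mean of 2.74, below the array medians. The limma adjusted p of these 4 genes lay between 0.00234 and 0.0261. The pregnane X receptor gene Nr1i2 (log2 fold change -0.33, limma adjusted p = 0.0675) and the dioxin receptor Ahr (0.24, 0.126) did not pass; both were named after their values were seen.

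Exporters of conjugates split evenly, with 3 of 12 higher and 3 lower. Abcc2, the apical pump for glucuronides and glutathione conjugates, fell by 2.94 (SE 0.24) to a mean of 2.86, below the array medians, while the basolateral pump Abcc3 rose by 0.87 (SE 0.08). Both subunits of the basolateral steroid and bile acid transporter, Slc51a and Slc51b, fell by 0.91 (SE 0.15) and 0.84 (SE 0.12). Of 13 genes that hydrolyse conjugates or process glutathione conjugates to mercapturates 1 rose and 5 fell, with a median of -0.15. The brush border peptidase Anpep fell by 1.35 (SE 0.15), the leucine aminopeptidase Lap3 by 1.27 (SE 0.12) and the aminoacylase Acy1 by 1.02 (SE 0.17), while Kyat3, a cysteine conjugate beta-lyase, rose by 0.79 (SE 0.07). These 8 genes had a limma adjusted p of 0.00117 to 0.0151.

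Among 20 other conjugating enzymes 3 rose and 1 fell. The thiopurine methyltransferase Tpmt rose by 0.91 (SE 0.19), the N-methyltransferase Inmt by 0.77 (SE 0.16) and Hpgds, a Sigma class GST that makes prostaglandin D2, by 0.51 (SE 0.11). Baat, which joins bile acids to glycine or taurine, fell by 0.82 (SE 0.12) from a mean of 3.39 to 2.57, which is below the array medians. Of 24 oxidases, reductases and hydrolases that act before conjugation 7 rose and 2 fell, with a median of 0.27. This list shares genes with the NRF2 targets, including among those that rose, so the counts of these lists are not independent. The aldo-keto reductases Akr1c14 and Akr1c12 rose by 1.43 (SE 0.11) and 0.75 (SE 0.08), while the flavin monooxygenase Fmo4 fell by 1.88 (SE 0.19) and the aldehyde dehydrogenase Aldh1b1 by 0.83 (SE 0.10). Limma adjusted p of these 8 genes was 9.31e-04 to 0.0310. Of 14 sulfotransferases that act on glycans or tyrosine, limma called 0 after adjustment, while 1 had an unadjusted p under 0.05, against 24.7% of all genes, and the median was 0.06.

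Of the 34 genes named from these lists, 20 passed whichever array was left out. Those that lost the call without 1 array were Srxn1 and Ugdh, each without Gata6 KO replicate 2 (0.0507 and 0.0594), and Nqo1, which did so in the absence of control replicate 3 or of that same array (0.0581 and 0.0586). Without control replicate 3 or 2 of the KO-labelled arrays, Papss2 (replicates 2 and 3), Slc51a (1 and 2) and Me1 (1 and 3) had values of 0.0524 to 0.0719. Acy1 and Bach1 lost it without control replicate 3 or any 1 KO-labelled array (0.0518 to 0.107). Nfe2l2 lost it without control replicates 1 or 3 or Gata6 KO replicates 2 or 3, Gclc without control replicates 2 or 3 or those same arrays, and Nr1i3 without control replicates 1 or 3 or Gata6 KO replicates 1 or 3 (0.0566 to 0.111). Hpgds and Inmt kept it only without control replicate 1, and Tpmt only without Gata6 KO replicate 1 (0.0623 to 0.124 in the other fits).

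**Figure D4:**
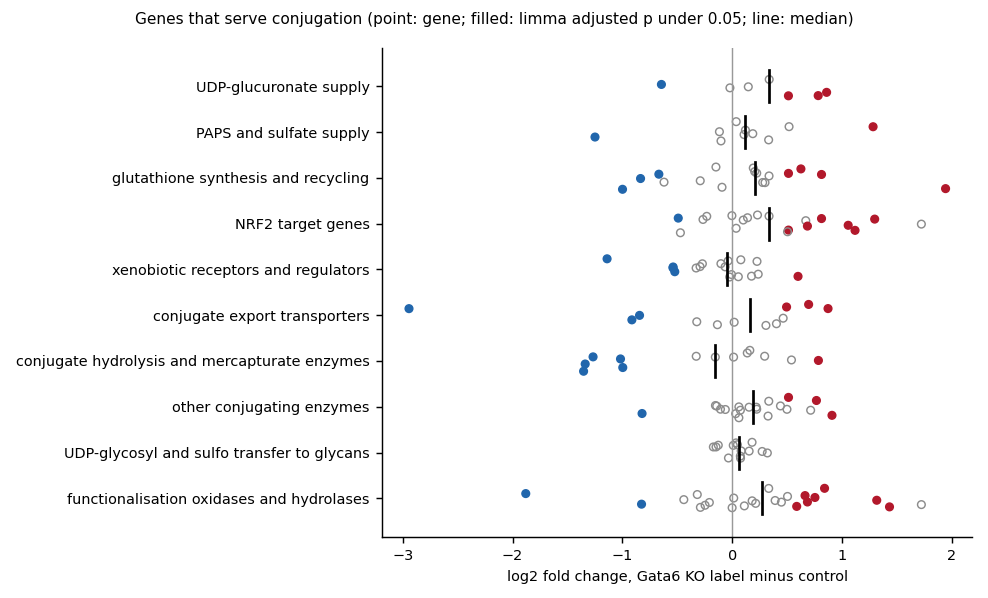
Log2 fold change (Gata6 KO label minus control, horizontal axis) of genes on 10 lists that serve conjugation; each point is a gene, filled red or blue where it passed higher or lower at a limma adjusted p under 0.05, and black lines are list medians. NRF2 target genes hold 6 red points and 1 blue, and Abcc2 lies farthest to the left at -2.94.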

How the data were processed

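The authors deposited log2 values for 35557 probe sets on 6 arrays, 1 per mouse, and the submitters' processing notes name Affymetrix Expression Console as the software. The base of the logarithm was inferred from the range of the values, and the sources used here give neither background correction nor normalization. Of the probe sets 21789 had 1 symbol in the platform annotation, 1621 had several and 12147 were not listed. The brightest single-symbol probe set by the mean of the 6 arrays stood for each of 19938 genes. All 48 members matched RefSeq by Entrez ID. The deposited log2 values were fitted without further scaling in limma 3.58.1 (R 4.3.3) with lmFit and eBayes, two-sided, with Benjamini-Hochberg adjustment over all genes and a threshold of 0.05. On data simulated for this comparison, 200 of 19938 genes were changed in each of 5 draws. The fit recovered 46.8% of changes of 0.5 log2 units, 98.4% of changes of 1 and 100% of changes of 2, and 5.95% of calls were false. The draws used independent normal noise for each gene and array. They held no effect shared by an array, no male sample and no tissue difference. Fewer genes were changed in them than the 1643 called here. The rates describe such draws and need not hold for these arrays.

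Each group held 3 individual mice, per the labels. Members that passed and the 2 brightest per family that did not are named, with up to 4 genes of each of 10 pathway lists. Gstm5, Gstm7, Gstt3 and Gstk1 were added after their values were seen. The members, the lists and the 8 marker lists were chosen with earlier results of these data known. Alternatives were the array scaling, a filter on dim genes, the mean of a gene's probe sets, the moderation, array weights, a replicate block and leaving out arrays. Leaving out control replicates 1 and 3 together was chosen after seeing the data. Probe sets shared between genes were kept out of the gene counts and fitted with all 35557 probe sets. Figures were drawn with matplotlib 3.10.9.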

Additional observations from a re-analysis of the deposited data

Results flagged for a closer look

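A signal appeared in data that the gene comparisons do not use. The annotation gives 1 probe set to 8 UGT1 genes (Ugt1a1, Ugt1a2, Ugt1a5, Ugt1a6a, Ugt1a6b, Ugt1a7c, Ugt1a9 and Ugt1a10), which are known to share their last exons, so it names no single gene. Controls read 6.57, 6.42 and 6.28, and arrays carrying the Gata6 KO label 7.20, 7.42 and 7.42. The groups did not overlap, and Gata6 KO replicate 1 was the lowest of its group. The difference on the log2 scale was 0.93 (SE 0.11, 3 arrays a group), with a limma adjusted p of 0.0167 over 35557 probe sets. Which of the 8 transcripts moved cannot be told apart from this probe set.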

How the results depend on the processing

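Of the 17 members that passed, 17 kept the call with each array centred on its median and with array weights, 16 with the mean of all probe sets of a gene, 15 with quantile normalization and with an intensity trend and robust prior, and 14 with dim genes left out. Without moderation 2 did, Sult1c2 and Gstm2: members were 2 higher and 0 lower, UGT 0 and 0, SULT 1 and 0, GST with MGST 1 and 0, and all genes 168 and 106. Centring gave 1562 higher genes against 995, and shifted the median of all genes by 0.06. UGT genes higher numbered 2 with centring, with dim genes left out, with the trend and with array weights. GST with MGST lower numbered 2 with dim genes left out and with the trend. With dim genes left out 1 UGT gene was lower and the median over members was 0.33, by construction over fewer genes. Leaving out 1 array at a time gave 320 to 806 genes higher and 277 to 597 lower over all genes, and 4 to 9 and 2 to 4 members. UGT counts were then 0 to 1 higher and 1 to 2 lower, SULT counts 1 to 3 higher and 1 lower, GST with MGST counts 3 to 6 higher and 0 to 2 lower, and the median was 0.11 to 0.18. Without control replicates 1 and 3, which leaves 1 control assumed to vary like the other group, all genes were 25 higher and 11 lower, members 0 and 1, UGT 0 and 1, SULT 0 and 0, and GST with MGST 0 and 0. The log2 fold change of Sult1b1 turned sign to 0.023 with centring and 0.010 with array weights, and ran from -0.16 to 0.10 over the fits without 1 array, at 0.10 without control replicate 2 and 0.0088 without Gata6 KO replicate 1, and that of Sult4a1 to -0.12 without control replicates 1 and 3. Both were near 0 and did not pass, and the cause of these shifts was not tested beyond the loss of arrays or genes by construction. Same-numbered deviations correlated at 0.04, -0.04 and 0.15, and 2 of 6 arrays correlated best with their own number. With 3 arrays per group these values cannot tell whether the replicate numbers pair mice. With the replicate block 7 members were higher, of which 0 UGT, 2 SULT and 5 GST or MGST, and 10 of the 17 kept the call. Members below the array medians have no reliable size of change.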

Other observations

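The Alpha class genes Gsta1 and Gsta2 have no probe set of their own. The 4 probe sets listed for both, each with 4 symbols, had log2 fold changes of -0.35 to -0.31 and a limma adjusted p of 0.417 to 0.463 over all probe sets. Control replicate 1 was the highest array on each of the 4, at 7.21 to 7.99, and the other 5 arrays read 6.37 to 7.29. Why it stood apart was not tested. The 2 probe sets shared by the Pi class genes Gstp1 and Gstp2 had log2 fold changes of 0.13 and 0.14 and did not pass (limma adjusted p = 0.531 and 0.572). The remaining 5 shared probe sets, of SULT2A, UGT2A and UGT3A genes, were below the array medians on every array, at 0.44 to 1.38.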
